A study of Mus musculus with 4 samples.

Results

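The 8 genes Prox1, Reln, Nts, Flt4, Lyve1, Stab2, Scn3a and Apba2 were followed through single-cell counts of the mouse embryo, out of 32285 genes measured. They were chosen, with values of these data known, for how their unique molecular identifiers (UMIs, single captured RNA molecules) met Prox1 in the same endothelial cells of each sort gate and for their levels in neurons and macrophages. Those patterns are therefore given as a description, with no test. The cells came from the aorta-gonad-mesonephros region (AGM), where definitive blood stem cells first arise, of C57BL/6J embryos at E11.5, mid-gestation. All cells were sorted on the surface protein CD31, the product of Pecam1, which marks endothelium and part of the blood lineage. They were then divided by TMRM, a dye that gathers in mitochondria by membrane potential, into MMPlow cells with little of it and MMPhigh cells with much, and the labels name no other treatment or genotype. Each fraction holds 2 libraries. The labels give neither the number of embryos nor whether libraries of one fraction came from separate embryos, so p-values measure only the spread between these libraries, which may be technical.

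Lymphatic vessels form when a subset of venous endothelial cells switches on the homeobox factor Prox1, under Sox18 and Nr2f2, and leaves the vein towards Vegfc. Flt4 encodes VEGFR3, the receptor tyrosine kinase for Vegfc. Lyve1 encodes a hyaluronan receptor of lymphatic endothelium that macrophages also carry, and Stab2 a scavenger and hyaluronan receptor typical of sinusoidal endothelium. Reln encodes the secreted glycoprotein reelin and Nts the peptide neurotensin, both known from neurons as well as from vessels. Scn3a encodes a subunit of voltage-gated sodium channels and Apba2 an adaptor that binds amyloid precursor protein, both best known from neurons. Prox1 itself is also a factor of neural progenitors and young neurons.

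In GRCm38, the mm10 build, RefSeq places Prox1 (ENSMUSG00000010175) at chr1:190118035-190170827 and Reln (ENSMUSG00000042453) at chr5:21884454-22344705. Nts (ENSMUSG00000019890) lies at chr10:102481756-102490418 and Stab2 (ENSMUSG00000035459) on the same chromosome at chr10:86841194-87008038. Flt4 (ENSMUSG00000020357) is at chr11:49609679-49652739. Lyve1 (ENSMUSG00000030787) and Apba2 (ENSMUSG00000030519) share chromosome 7, at chr7:110850607-110862953 and chr7:64501560-64753878. Scn3a (ENSMUSG00000057182) is at chr2:65457118-65567591.

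The RefSeq table of GRCm38.p6 promoters matched 6 of the 8 genes. The 250 bases before the start site are shown for Prox1, for the secreted products Reln and Nts and for the receptor gene Flt4. Each runs 5′ to 3′ on the gene's own strand, which is the minus strand for Prox1, Reln and Nts and the plus strand for Flt4. Capitals mark matches, on either strand, to short motifs of ETS and GATA factors that are spelled out after the sequences.
Prox1 (chr1:190170828-190171077): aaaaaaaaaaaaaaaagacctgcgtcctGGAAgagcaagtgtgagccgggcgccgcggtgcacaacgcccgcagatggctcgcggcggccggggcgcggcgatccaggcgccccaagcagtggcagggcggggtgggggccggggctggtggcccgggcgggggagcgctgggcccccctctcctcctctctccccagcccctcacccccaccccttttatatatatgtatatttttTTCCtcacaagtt
Reln (chr5:22344706-22344955): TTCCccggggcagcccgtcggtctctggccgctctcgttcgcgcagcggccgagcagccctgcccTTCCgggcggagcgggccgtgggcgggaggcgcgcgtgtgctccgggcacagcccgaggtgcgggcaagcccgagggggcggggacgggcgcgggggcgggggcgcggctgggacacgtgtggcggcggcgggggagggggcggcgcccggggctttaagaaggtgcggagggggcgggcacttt
Nts (chr10:102490419-102490668): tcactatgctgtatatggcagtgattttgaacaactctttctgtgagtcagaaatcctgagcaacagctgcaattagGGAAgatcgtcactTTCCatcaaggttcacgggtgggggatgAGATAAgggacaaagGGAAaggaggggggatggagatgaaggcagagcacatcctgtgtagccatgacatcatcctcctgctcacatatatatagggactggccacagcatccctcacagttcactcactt
Flt4 (chr11:49609429-49609678): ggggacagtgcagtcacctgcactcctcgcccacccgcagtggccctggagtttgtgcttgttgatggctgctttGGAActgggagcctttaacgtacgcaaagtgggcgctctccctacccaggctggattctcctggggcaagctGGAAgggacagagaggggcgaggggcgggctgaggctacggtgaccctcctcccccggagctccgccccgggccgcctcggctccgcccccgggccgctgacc

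All 4 windows held GGAA, the core of ETS factor sites, as did 93.4% of the 32851 promoter windows of the same length. The GATA factor motif AGATAA was found in the Nts window alone among these 4, against 9.99% of all windows. The core motif of SOX factors, written ACAAT, was present in 27.7% of all windows, in none of these 4 and in 1 of the windows of Apba2. For nuclear receptors the sequence AGGTCA was searched, which 14.0% of all windows, none of these 4 and the Stab2 window held. Prox1 has a second entry in the table, whose window is not shown and held GGAA 5 times. Guanine and cytosine made up 64.8% of the Prox1, 80.0% of the Reln, 48.0% of the Nts and 68.4% of the Flt4 window. These are matches of letters, and nothing in these data measured binding.

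The libraries stand apart in depth and in cell makeup. After filters, 15865 and 18583 cells of MMPlow and 4183 and 3418 of MMPhigh were retained, above the lane target of 10000 cells in both MMPlow libraries. Their median UMIs per cell were 3089, 3651 and 3787, and 23668.5 in MMPhigh 2. Pecam1, the gene of the sorted protein, was at 275 and 261 CPM (a gene's UMIs scaled to a common total of all UMIs) in MMPlow and at 24.9 and 22 CPM in MMPhigh. A Pecam1 UMI was present in 52.4% and 55.0% of MMPlow cells and in 10.7% and 27.4% of MMPhigh cells, so most MMPhigh cells showed no RNA of the marker on which they were sorted. Endothelial-like cells, named from fixed markers, numbered 7383 and 8380 in MMPlow but 14 and 14 in MMPhigh. Neuron-like cells were 2.5% and 2.29% of MMPlow and 27.8% and 30.6% of MMPhigh. Macrophage-like cells were 9.47% and 9.75% of MMPlow against 25.3% and 27.1% of MMPhigh. Between 7 and 83 barcode sequences were shared by each pair of libraries, and no sequence was shared by Prox1-positive endothelial-like cells of 2 libraries.

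A Prox1 UMI was present in endothelial-like cells of both gates. In MMPlow, 451 of 7383 and 642 of 8380 endothelial-like cells held at least 1 Prox1 UMI, and 150 and 222 held at least 2. As shares, 6.11% (95% exact interval 5.57 to 6.68) and 7.66% (7.10 to 8.25) held at least 1, at median depths of 3133 and 3603 UMIs. In macrophage-like cells, at 2847 and 3318 UMIs, the shares were 3.93% (3.001 to 5.03) and 4.25% (3.37 to 5.29). Thinned to 2000 UMIs, the shares were 4.09% and 4.53% of endothelial-like and 2.26% and 2.48% of macrophage-like cells. Cells with exactly 1 Prox1 UMI, 301 and 420 of 451 and 642 positive cells, were the larger part; the share of these UMIs that came from free RNA was not tested. In MMPhigh, 2 of 14 (1.78% to 42.8%) and 3 of 14 (4.66% to 50.8%) held a Prox1 UMI, each with at least 2. Median depths there were greater, at 10308.5 and 20782.5 UMIs. Thinned to 2000 UMIs, 2 and 2 of 14 held a Prox1 UMI. The summed endothelial-like cells stood at 30.6 and 37.4 CPM in MMPlow (34.0 ± 4.82, SD, n = 2) and at 322 and 155 CPM in MMPhigh (239 ± 118, SD, n = 2). The gates do not overlap, but the MMPhigh values rest on 67 and 52 Prox1 UMIs from those 5 cells. Of these UMIs, 59 and 47 came from 1 cell in each library.

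Leaving aside Prox1, which defines the split, Reln had the highest ratio of levels between Prox1-positive and Prox1-negative endothelium. A Reln UMI was present in 0.476% (0.328 to 0.668) of Prox1-negative cells of MMPlow 1 and in 0.594% (0.436 to 0.792) of those of MMPlow 2. Among cells with 2 or more Prox1 UMIs a Reln UMI was present in 30 of 150 cells (interval 13.9% to 27.3%) of MMPlow 1 and in 29.3% (23.4 to 35.7) of MMPlow 2, and cells with exactly 1 Prox1 UMI lay between. These intervals cover counting error only. In macrophage-like cells 0.466% (0.187 to 0.957) and 0.276% (0.0897 to 0.643) of cells held a Reln UMI, at median depths of 2847 and 3318 UMIs, and these intervals overlap those of Prox1-negative endothelium. The summed level of Reln was 37.3 and 51.2 CPM in Prox1-positive and 1.55 and 1.45 CPM in Prox1-negative cells, a ratio of means of 29.4. With endothelial cells defined by 4 marker genes instead of by cluster, that ratio was 10.1. That set took any retained cell with at least 2 UMIs over Cdh5, Kdr, Emcn and Tie1, and cells of other classes were not taken out. It held 583 and 843 Prox1-positive and 9479 and 11352 Prox1-negative cells.

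Nts, Apba2 and Scn3a followed at lower ratios. An Nts UMI was held by 1.24% and 1.72% of Prox1-negative cells and by 13.3% and 12.6% of cells with at least 2 Prox1 UMIs. For Nts the summed level was 43.0 and 28.5 CPM in all cells with 1 or more Prox1 UMIs against 3.97 and 4.80 CPM in Prox1-negative cells. For Apba2 the shares were 1.14% and 1.15% without Prox1 and 11.3% and 17.1% with at least 2 Prox1 UMIs. Over all cells with 1 or more Prox1 UMIs the level of Apba2 was 21.8 and 21.1 CPM, against 3.18 and 2.97 CPM without Prox1. Scn3a was the rarest, with 0.591% and 0.504% of Prox1-negative cells and 4.67% and 9.01% of cells with at least 2 Prox1 UMIs. Its level was 6.22 and 16.7 CPM in all cells with 1 or more Prox1 UMIs, against 1.63 and 1.42 CPM without. Each of these 3 genes was higher in Prox1-positive cells of both libraries. The ratio of means was 8.15 for Nts, 6.97 for Apba2 and 7.53 for Scn3a, the last 4.59 with endothelium defined by 4 marker genes.

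The 2 receptors of lymphatic vessels and Stab2 behaved otherwise. Flt4 was already widespread without Prox1, in 31.7% and 36.3% of cells, and was present in 54.0% and 61.3% of cells with at least 2 Prox1 UMIs. Over all cells with 1 or more Prox1 UMIs its level was 168 and 179 CPM, against 109 and 114 CPM without, a ratio of 1.55. Lyve1 was found in 2.28% and 2.75% of Prox1-negative and 5.33% and 9.91% of cells with at least 2 Prox1 UMIs, and in MMPlow 1 the intervals of these shares overlap (1.94 to 2.66 and 2.33 to 10.2). Its ratio of means between Prox1-positive and Prox1-negative cells was 2.76, and 1.27 with endothelium defined by 4 marker genes. Stab2 had no such excess. It was in 18.8% and 19.4% of Prox1-negative cells, in 20.9% and 23.1% of cells with 1 Prox1 UMI and in 12.7% and 14.9% of cells with 2 or more. The level of Stab2 was 92.5 and 91.2 CPM without Prox1, 82.4 and 81.8 CPM over all cells with 1 or more Prox1 UMIs and 54.6 and 54.7 CPM in those with 2 or more. The endothelial-like class leaves out the unnamed cluster 28, described below, where Stab2 and Lyve1 were highest in MMPlow. The set defined by 4 marker genes does not leave that cluster out.

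**Figure D1:**
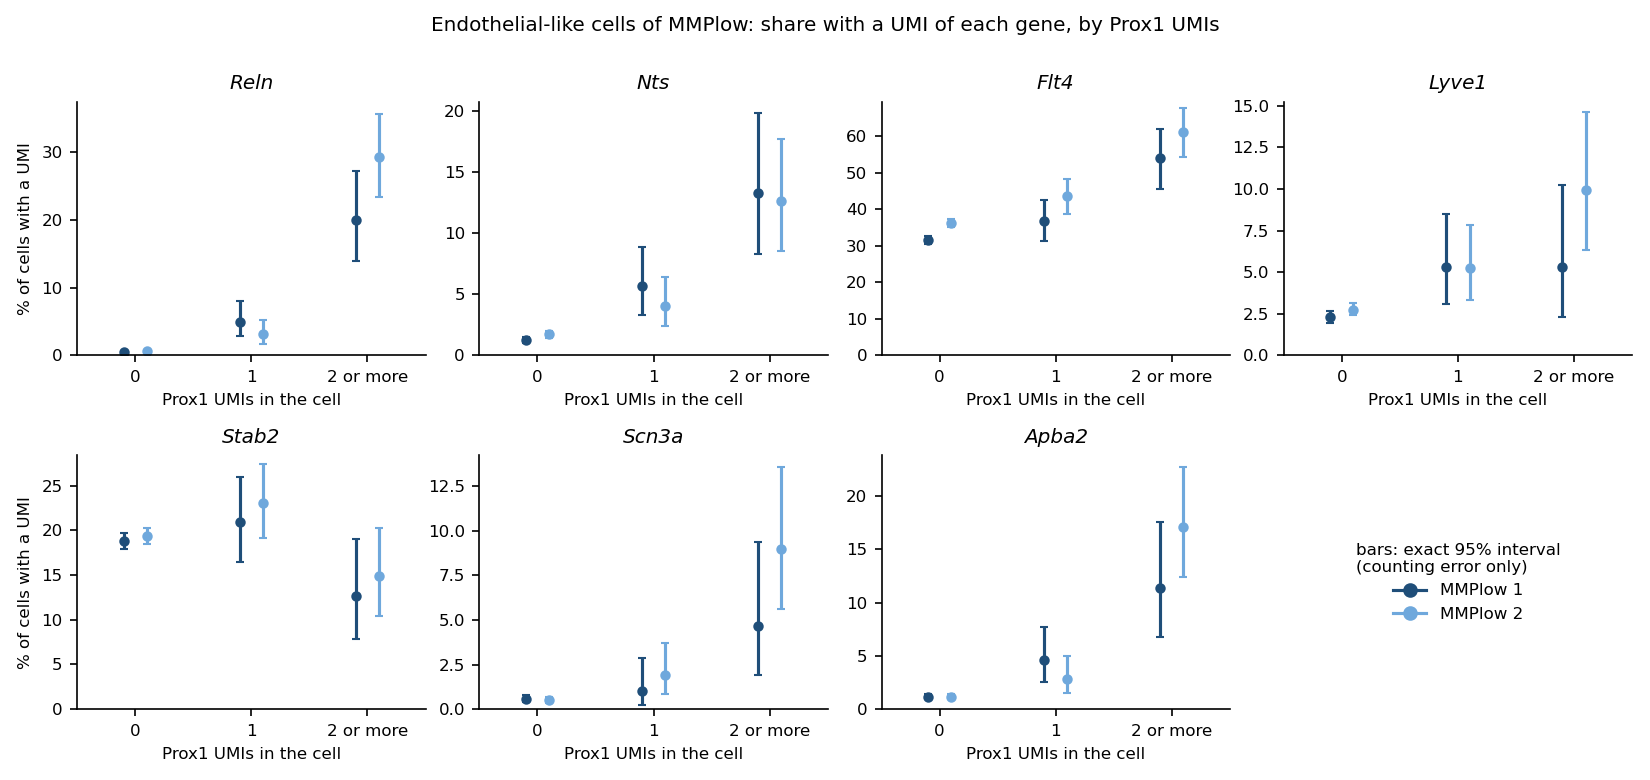
Share of endothelial-like cells of MMPlow with at least 1 UMI of each gene (vertical axis, percent) by the number of Prox1 UMIs in the cell (horizontal axis), with points for the 2 libraries and bars for exact 95% intervals of counting error. Reln goes from 0.476% and 0.594% without Prox1 to 30 of 150 cells and 29.3% with 2 or more Prox1 UMIs, while Stab2 is lowest, at 12.7% and 14.9%, in cells with 2 or more Prox1 UMIs.

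Cells with more Prox1 UMIs were also deeper, with median depths of 3114.5, 3293 and 3822.5 UMIs for 0, 1 and at least 2 Prox1 UMIs in MMPlow 1 and 3567, 3966 and 4408 in MMPlow 2. After each cell was thinned to 2000 UMIs, Reln was in 8.28% and 10.3% of Prox1-positive cells against 0.395% and 0.450% of the others. Thinned shares for Nts were 5.63% and 3.16% against 0.791% and 0.938%, and for Stab2 13.2% and 13.2% against 13.1% and 12.5%. For Flt4 they were closer than the unthinned shares, at 23.8% and 31.3% against 20.1% and 21.0%.

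Several of these genes were found together in some Prox1-positive cells. Of the 4 genes Reln, Nts, Scn3a and Apba2, at least 2 were present in 0.115% and 0.142% of Prox1-negative endothelial-like cells of MMPlow 1 and MMPlow 2. Among cells with at least 2 Prox1 UMIs that share was 10.0% (5.71 to 16.0) and 18.9% (14.0 to 24.7). At least 3 were present in 4 of those 150 cells of MMPlow 1 and 19 of those 222 cells of MMPlow 2. For Reln alone, neuron-like cells showed no excess with Prox1, with Reln in 28.4% ± 2.02 (SD, n = 2) of Prox1-positive and 31.8% ± 0.867 (SD, n = 2) of Prox1-negative neuron-like cells of MMPlow. The 12 neuron markers summed to 301 and 290 CPM in Prox1-positive and 271 and 286 CPM in Prox1-negative endothelial-like cells, all 12 with UMIs in each. Sympathoadrenal or neural crest markers, 10 genes, summed to 67.3 and 74.7 CPM against 45.6 and 48.4 CPM, with UMIs of 6 and 7 of the 10 in Prox1-positive and of all 10 in Prox1-negative cells. Their part in the co-detection was not tested.

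The endothelial-like cells were divided into 14 sub-clusters from genes other than these 8, and the level of Prox1 was by far highest in one of them. That sub-cluster, E0, held 389 and 626 cells in MMPlow, 5.27% and 7.47% of the endothelial-like class, and was led by Pld5, Zfpm2, Nrp2, Grip1 and Hmcn1. Prox1 was at 269 and 303 CPM there and at most 43.6 CPM in any other sub-cluster of either library. E0 held 47.3% and 58.9% of the endothelial Prox1 UMIs and 69.9% and 75.2% of the Reln UMIs. Most Prox1-positive cells lay outside it, with 133 of 451 and 219 of 642 inside and 318 and 423 outside. Most cells of E0, 256 and 407, held no Prox1 UMI. Levels in E0 were 51.8 and 59.9 CPM for Reln, 49.2 and 30.2 CPM for Nts, 31.5 and 29.8 CPM for Apba2 and 11.8 and 23.1 CPM for Scn3a, above every other sub-cluster in both libraries for each of these genes. Flt4 stood at 215 and 221 CPM in E0, with 157 CPM as the next highest value.

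Lyve1 and Stab2 were not highest in E0. Lyve1 was at 4.59 and 7.82 CPM there, against 23.6 and 29.3 CPM in sub-cluster E1, which was led by Tll1. Over all libraries together Lyve1 was at 26.7 CPM in E1 and 28.1 CPM in E10, which held 103 cells. Stab2 was at 144 and 145 CPM in E0 and at 221 and 236 CPM in E1. E1 also had the next highest level of Prox1, 42.9 and 43.6 CPM.

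**Figure D2:**
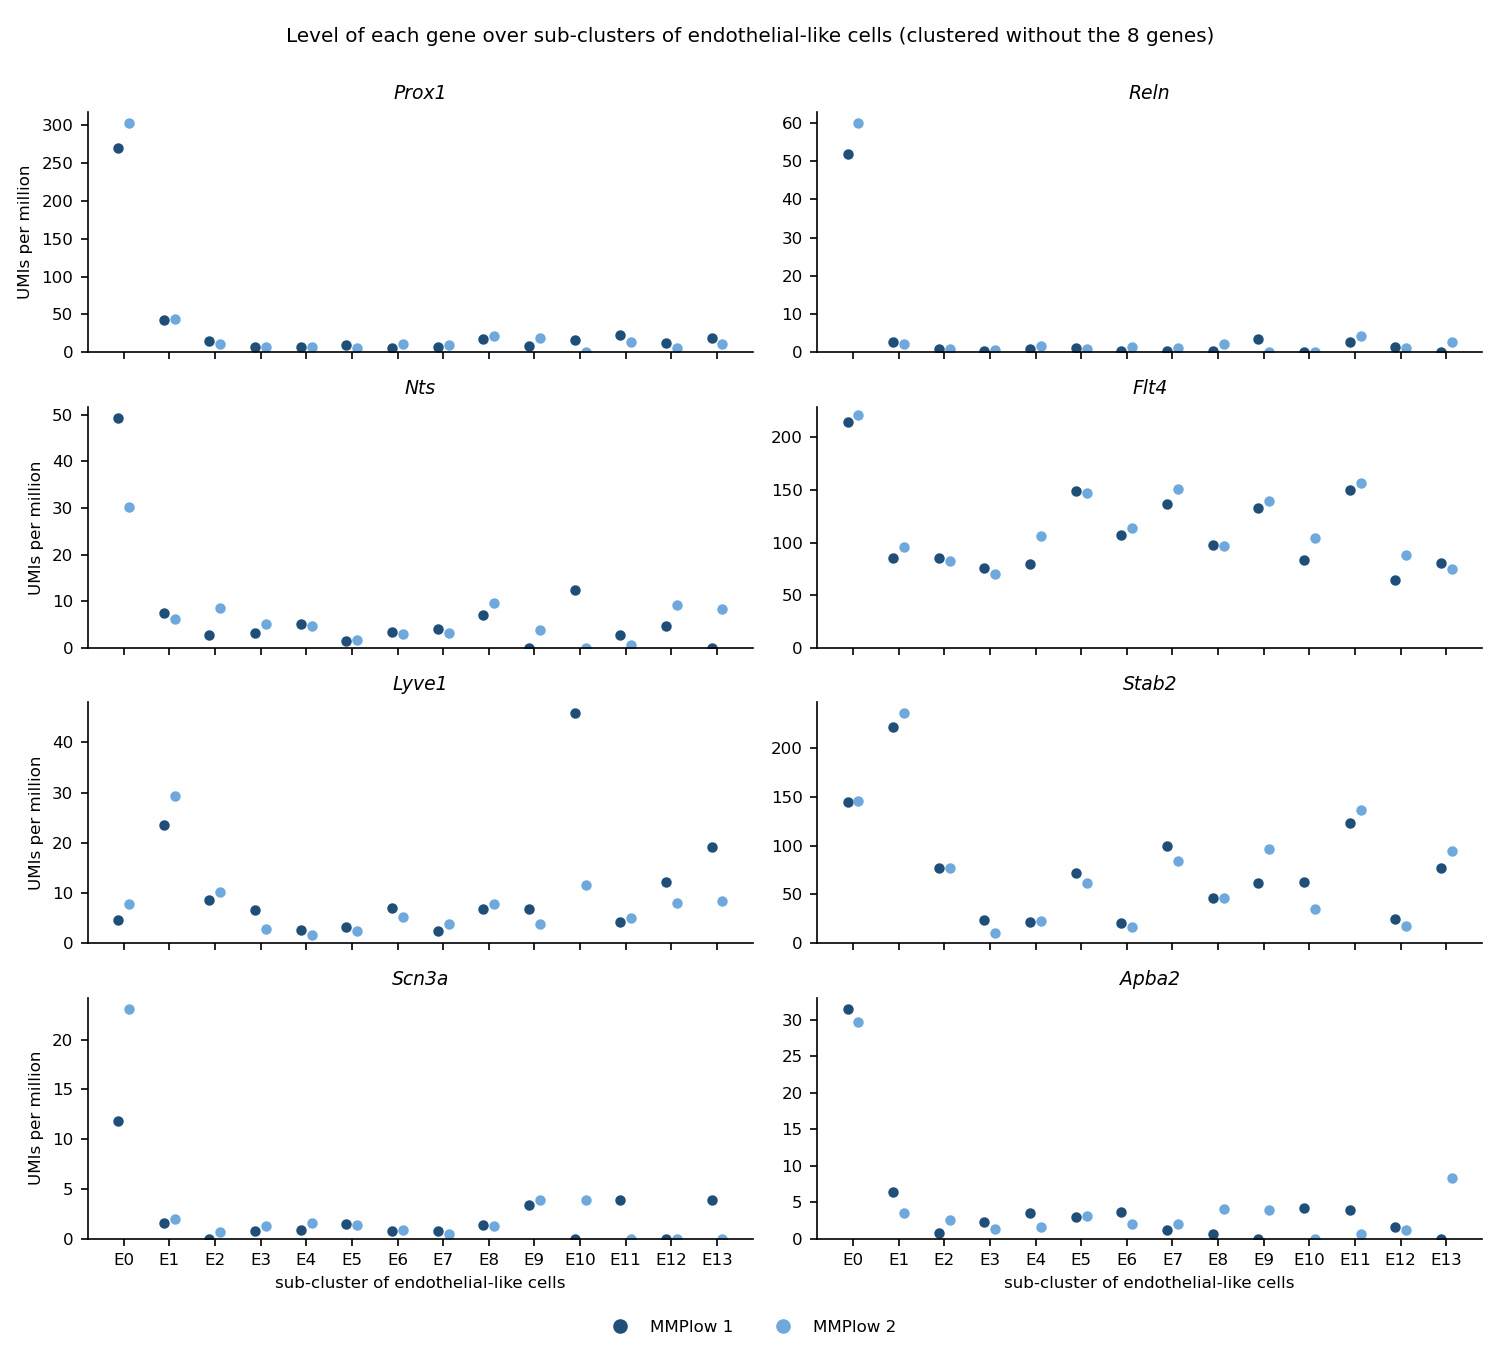
Level of each gene (CPM, vertical axes starting at 0) in the 14 sub-clusters of endothelial-like cells, with points for MMPlow 1 and MMPlow 2. Prox1, Reln, Nts, Scn3a, Apba2 and Flt4 are highest in E0 in both libraries, while Stab2 is highest in E1 and Lyve1 is not highest in E0.

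Inside E0, Reln and Nts were still more frequent in Prox1-positive than in Prox1-negative cells. A Reln UMI was present in 28.6% and 30.1% of the Prox1-positive cells of E0 and in 3.91% and 1.97% of its Prox1-negative cells, at median depths of 3147 and 3999 against 3381.5 and 3512 UMIs. Nts was in 18.8% and 14.2% against 2.34% and 1.72%. Flt4 was frequent in both, in 57.9% and 67.1% against 42.6% and 47.9%, and Lyve1 was as rare in one as in the other, in 1.5% and 3.20% against 1.56% and 3.19%. Stab2 ran the other way, in 11.3% and 16.0% of Prox1-positive and 34.8% and 35.1% of Prox1-negative cells of E0. Outside E0, Prox1-positive cells held Reln in 2.20% and 2.84% of cells and Nts in 3.77% and 3.31%. Prox1-negative cells outside E0 held Reln in 0.345% and 0.518% of cells, fewer than the Prox1-negative cells inside it. Lyve1 outside E0 was at 24.6 and 33.4 CPM in Prox1-positive and 8.17 and 7.69 CPM in Prox1-negative cells.

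All 5 Prox1-positive endothelial-like cells of MMPhigh fell into E0, and E0 held no other MMPhigh cell. The first cell of MMPhigh 1, with 8858 UMIs in all, held 8 UMIs of Prox1, 8 of Reln, 15 of Apba2, 4 of Flt4, 4 of Scn3a and 1 of Nts. The second, with 45768 UMIs, held 59 of Prox1, 23 of Scn3a, 14 of Flt4, 13 of Nts and 6 of Reln. In MMPhigh 2 the first cell, with 46236 UMIs, held 47 of Prox1, 25 of Flt4, 19 of Nts, 13 of Reln, 9 of Scn3a and 7 of Apba2. Those 3 cells carried no Stab2. The other cells of MMPhigh 2 held 2 and 3 Prox1 UMIs and no Reln, and 6 and 1 UMIs of Stab2. The neuron genes Tubb3 and Stmn2 had at most 1 UMI, and the macrophage genes C1qa and Csf1r none, in any of the 5 cells, while Pecam1 had between 3 and 30.

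**Figure D3:**
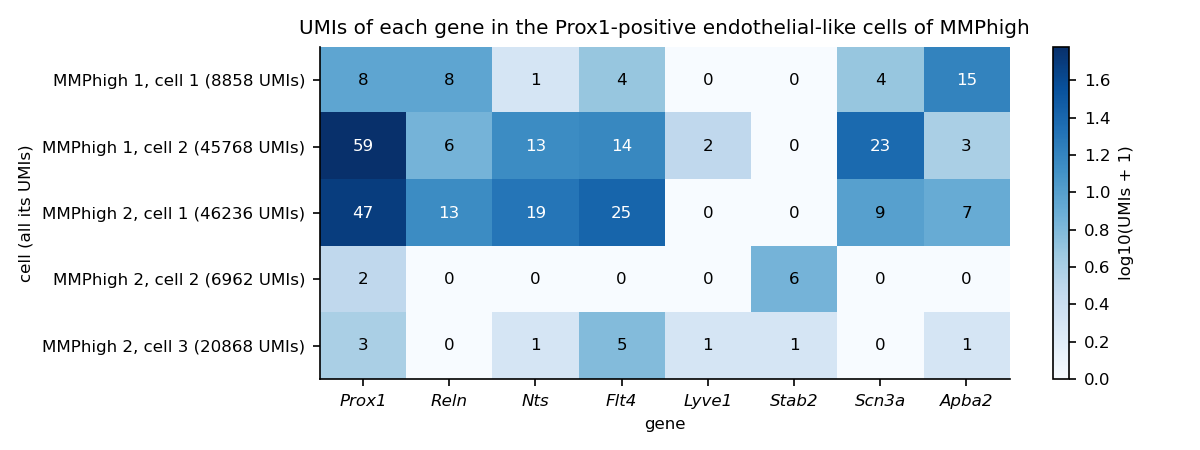
UMIs of each of the 8 genes (columns, printed in each box, shade on a log10(UMIs + 1) scale) in the 5 Prox1-positive endothelial-like cells of MMPhigh (rows, with each cell's total UMIs). Both cells of MMPhigh 1 and the first cell of MMPhigh 2 hold Reln, Nts, Flt4, Scn3a and Apba2 beside Prox1.

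The genes were also summed over all endothelial-like cells of each gate. Those 5 cells held all 14 and 13 Reln UMIs of the MMPhigh sums, but none of the 4 Stab2 UMIs in MMPhigh 1 and 6 and 1 of the 63 in MMPhigh 2. Nts was at 6.63 and 6.87 CPM in MMPlow and at 67.3 and 68.7 CPM in MMPhigh. Reln was at 3.98 and 5.79 CPM against 67.3 and 38.8 CPM, and Scn3a at 1.94 and 2.76 CPM against 135 and 26.9 CPM. In each MMPhigh library 1 deep cell, of 45768 and 46236 UMIs, held most UMIs of Nts and Scn3a. It held 13 of 14 and 19 of 23 Nts UMIs, and 23 of 28 and 9 of 9 Scn3a UMIs. Flt4 was closer, at 113 and 120 CPM against 149 and 167 CPM. Stab2, at 91.8 and 90.4 CPM in MMPlow, split the MMPhigh libraries, at 19.2 and 188 CPM from 4 and 63 UMIs. In this comparison 2.23% of all 14915 genes tested passed the edgeR threshold, 0.865% higher and 1.36% lower in MMPhigh. DESeq2 turned that balance, with 484 genes higher and 237 lower against 129 and 203 in edgeR. Nothing is read from the members' own place in this comparison because it helped to choose them.

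Across all cell classes the genes fell into patterns that the endothelium does not show. Leaving aside the 14 and 14 endothelial-like cells of MMPhigh, Prox1 had its highest mean in neuron-like cells, at 88.9 and 104 CPM in MMPlow (96.6 ± 10.98, SD, n = 2) and 98.8 and 112 CPM in MMPhigh (106 ± 9.62, SD, n = 2). In MMPlow the unnamed cluster 18 (88.8 ± 32.5 CPM), cluster 20 (51.7 ± 54.5 CPM) and cluster 12 (43.3 ± 18.7 CPM) came next, then muscle progenitor-like cells (39.0 ± 7.04 CPM) and the endothelial-like class (34.0 ± 4.82 CPM), and each overlapped its neighbour in that order. With clusters cut at resolution 2, Prox1 in neuron-like cells of MMPlow was 53.7 ± 16.6 CPM (SD, n = 2). That was below the mean of cluster 18 at resolution 1. Cluster 18 held only 33 and 25 cells of MMPlow, and Neurod1, Nefm and Isl1 were among its leading genes. Its best marker list was hepatocyte and its next neuron. At resolution 0.5 a cluster with these genes among its leading ones was named neuron-like. The first place in MMPlow thus depends on the clustering and on which clusters are named neuron-like. In MMPlow 2 cluster 18 (112 CPM) was above neuron-like cells at resolution 1 too. Prox1 in macrophage-like cells was low and even, at 12.5 and 11.8 CPM in MMPlow and 12.2 and 11.3 CPM in MMPhigh.

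Reln, Scn3a and Apba2 were neuronal genes here too. Reln stood at 194 and 209 CPM in neuron-like cells of MMPlow and 279 and 339 CPM in MMPhigh, while its macrophage-like levels ran from 1.07 to 3.26 CPM. Scn3a was at 165 and 180 CPM and at 206 and 246 CPM in neuron-like cells, and from 0.617 to 3.26 CPM in macrophage-like cells. At resolution 0.5 its neuron-like level in MMPlow was 112 ± 6.48 CPM (SD, n = 2). Apba2 was at 268 and 263 CPM and at 330 and 383 CPM, against 1.48 to 5.81 CPM. In MMPhigh the neuron-like class lay above every other class for each of the 3 genes, without overlap. In MMPlow that held for Scn3a and Apba2, while Reln overlapped cluster 18, whose libraries were far apart (360 ± 391 CPM, SD, n = 2).

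Nts was not a neuronal gene in these cells. Neuron-like cells held 1, 3, 0 and 5 Nts UMIs in MMPlow 1, MMPlow 2, MMPhigh 1 and MMPhigh 2, which is 0.613, 1.45, 0 and 0.164 CPM. In MMPhigh 1, 3 UMIs would correspond to 0.309 CPM. Macrophage-like cells held 6, 15, 2 and 0 Nts UMIs, which is 1.10, 1.85, 0.204 and 0 CPM.

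Lyve1 and Stab2 were led by a cluster of endothelial character that the naming rule left unnamed. It scored 1.51 (mean log2 fold) on the endothelial list against 0.29 on the next. Of 12 endothelial markers, 11 were at least 1 log2 unit higher in it. It went unnamed because markers of rival lists (Gata4 and Gap43), and none of the endothelial list, were among its leading genes. Its cells are therefore outside the endothelial-like class in every comparison here. That cluster, number 28, held 290 and 371 cells of MMPlow and 3 and 1 of MMPhigh and was led by Stab2 itself, with Colec12, Gata4, Ehd3 and Oit3. Stab2 reached 1720 ± 225 CPM (SD, n = 2) there, against 91.1 ± 0.973 CPM in the endothelial-like class. Lyve1 was at 250 ± 6.17 CPM and Flt4 at 165 ± 5.70 CPM, above the endothelial-like 8.99 ± 0.300 and 117 ± 4.58 CPM without overlap. Prox1 in it was 10.1 ± 0.995 CPM, below the endothelial-like class.

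By level, Lyve1 in macrophage-like cells was above its own level in the endothelial-like class of MMPlow. Macrophage-like cells stood at 31.5 and 28.6 CPM in MMPlow and 26.1 and 39.4 CPM in MMPhigh, against 8.78 and 9.20 CPM in the endothelial-like class of MMPlow. A Lyve1 UMI was in 4.72%, 5.36%, 3.31% and 8.32% of macrophage-like cells of MMPlow 1, MMPlow 2, MMPhigh 1 and MMPhigh 2, and a Prox1 UMI in 3.93%, 4.25%, 8.51% and 20.5%, with a median depth of 23564 UMIs in the last library. Within the class it was uneven, with cluster 13 at 104 and 103 CPM in MMPlow and 58.6 and 80.4 CPM in MMPhigh, and cluster 15 between 0.399 and 13.6 CPM. Cluster 10 held most macrophage-like cells of MMPlow and clusters 13, 15 and 30 most of those of MMPhigh.

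**Figure D4:**
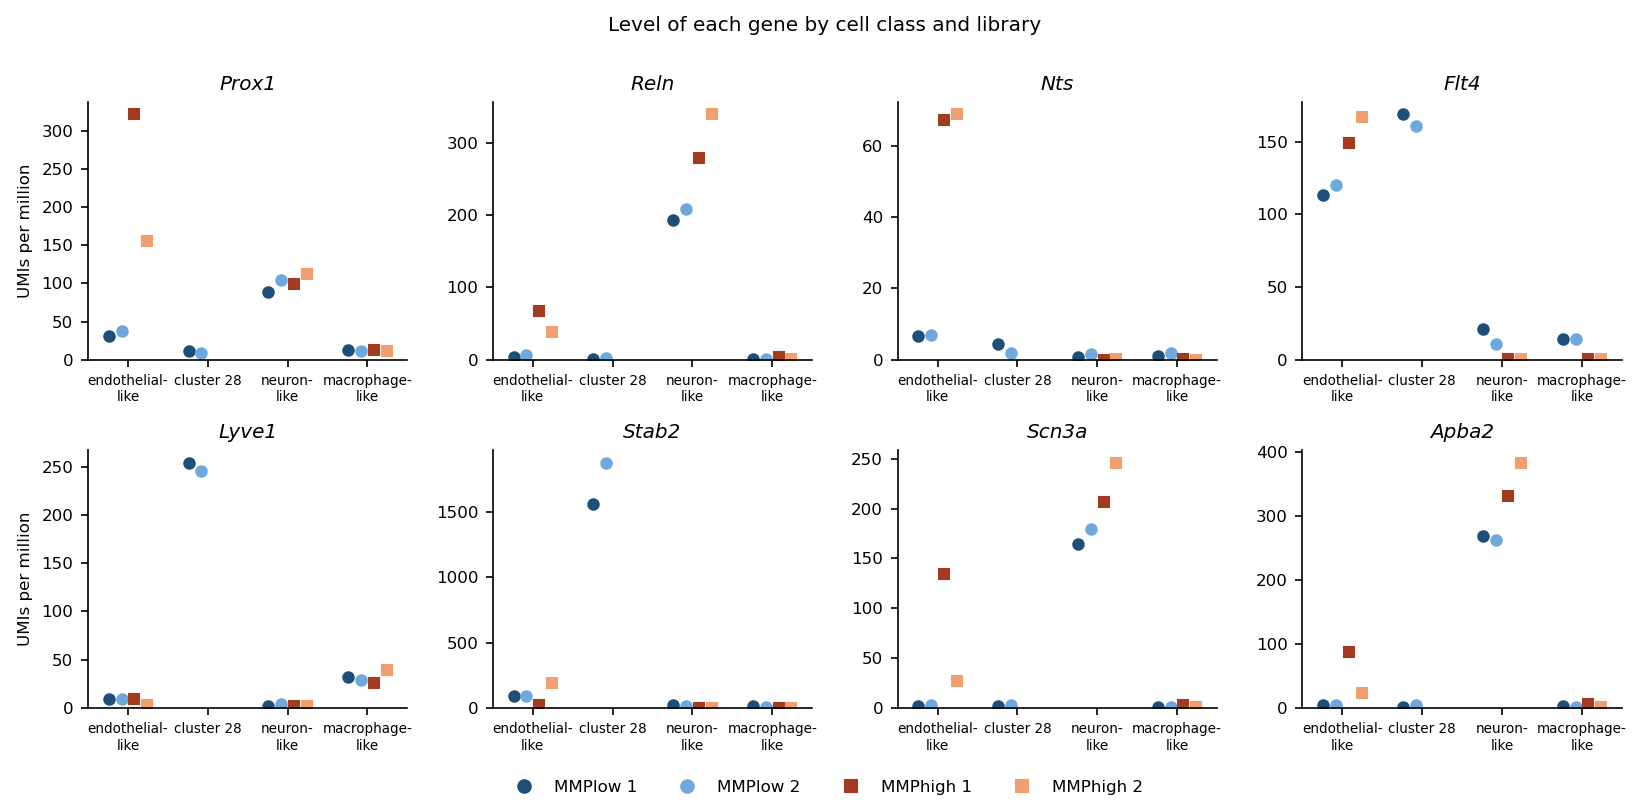
Level of each gene (CPM, vertical axes starting at 0) in endothelial-like cells, the unnamed cluster 28, neuron-like and macrophage-like cells, with circles for MMPlow and squares for MMPhigh libraries (cluster 28 is left out for MMPhigh, where it holds 3 and 1 cells). Reln, Scn3a and Apba2 are highest in neuron-like cells, Stab2 and Lyve1 in cluster 28, and Nts in endothelial-like cells.

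Within neuron-like cells the gates are set side by side as a description, since the levels in these cells helped to choose the genes. Reln was at 194 and 209 CPM in MMPlow and 279 and 339 CPM in MMPhigh, and the gates did not overlap. Apba2 did not overlap either, with the higher values in MMPhigh, and both genes kept this order at resolutions 0.5 and 2. Scn3a was also higher in MMPhigh without overlap at resolutions 1 and 0.5, but at resolution 2 its order turned over, at 255 and 254 CPM in MMPlow against 205 and 249 CPM in MMPhigh. Prox1 overlapped at resolution 1 (88.9 and 104 CPM against 98.8 and 112 CPM). At resolution 0.5 Prox1 did not overlap, at 76.8 and 78.0 CPM against 86.2 and 98.9 CPM, nor at resolution 2, at 42.0 and 65.4 CPM against 79.2 and 95.8 CPM. Over all 14328 genes compared between gates in these cells, 8.63% passed the edgeR threshold of 0.05 after Benjamini-Hochberg adjustment, 3.37% higher and 5.26% lower in MMPhigh, and nothing is read from the members' place among them. The class is made of 2 clusters, of which cluster 16 holds 667 of its 1161 cells in MMPhigh 1 but 21, 21 and 54 in MMPlow 1, MMPlow 2 and MMPhigh 2. Within cluster 11 alone Reln was at 198 and 216 CPM in MMPlow and 344 and 346 CPM in MMPhigh.

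Flt4 and Stab2 had lower values in MMPhigh in both non-endothelial classes, again as a description. In neuron-like cells Flt4 was at 20.8 and 11.1 CPM in MMPlow and 0.412 and 0.230 CPM in MMPhigh. Stab2 there was at 23.3 and 14.0 CPM against 0.619 and 0.230 CPM. In macrophage-like cells Flt4 was at 14.5 and 13.9 CPM against 0.306 and 0.246 CPM. Over all 13719 genes compared in macrophage-like cells 31.8% passed in edgeR, 16.4% higher and 15.4% lower. The 12 endothelial markers, which did not choose the genes, summed to 837 and 720 CPM in neuron-like cells of MMPlow and 69.5 and 20.2 CPM in MMPhigh, and to 775 and 630 CPM against 112 and 107 CPM in macrophage-like cells. Of these 12 markers, 5 were called lower in neuron-like and 12 in macrophage-like cells, and none higher. Their part in the Flt4 and Stab2 values, and in the neuron-like levels of Reln, Apba2, Scn3a and Prox1 given above, was not tested. Lyve1 and Prox1 overlapped between the gates in macrophage-like cells.

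All retained cells were also summed per library. Reln (10.6 and 13.2 CPM against 83.5 and 112 CPM), Scn3a, Apba2 and Prox1 were higher in MMPhigh. Flt4 (65.8 and 64.1 CPM against 1.39 and 0.941 CPM), Stab2, Nts and Lyve1 were lower there. In the edgeR fit of these sums 53.7% of 20410 genes passed, 27.2% higher and 26.5% lower, and nothing is read from the members' place in it. In such sums fewer cells of a type and less RNA per cell cannot be told apart.

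Beyond the 8 genes, 83 other genes of 7 lists (lymphatic ligands, receptors, transcription factors and surface genes, and arterial, venous and sinusoidal endothelium) were taken up for comparison between Prox1-positive and Prox1-negative endothelial-like cells of MMPlow. Of these, Fgfr3, Fcgr2b, Clec4g and Dnase1l3 did not pass the filter on low counts and were not tested. Nrp2, Nr2f2, Ephb4 and Stab1 each stand on 2 lists. The lists were chosen with earlier results of these data known, so the counts below describe them and are no independent test. Over all 15341 genes tested, 1097 passed the threshold, 7.15%, with 512 higher (3.34%) and 585 lower (3.81%) in edgeR. Both sums of a library come from its own cells, so this test reads the spread between splits of 2 libraries. DESeq2 called 360 genes (188 higher, 172 lower) and edgeR without the library term 333 (194 higher, 139 lower). On cells thinned to 2000 UMIs edgeR called 708 (313 higher, 395 lower). With endothelium defined by 4 markers it called 1488 of 16915 genes (875 higher, 613 lower). The balance of higher and lower genes thus turned in each of these but the thinned cells.

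Lymphatic surface, junction and structural genes rose in 6 of 14 cases and in none was lower in the edgeR fit, with a median log2 fold of 0.20 against -0.00464 over all genes. Pdpn, the podoplanin gene, was at 7.77 and 6.51 CPM in Prox1-positive and 1.10 and 1.04 CPM in Prox1-negative cells (log2 fold 2.70, SE 0.38). Celsr1, a planar polarity cadherin, was at 15.5 and 15.8 CPM against 4.24 and 4.63 CPM (log2 fold 1.80, SE 0.22). Mmrn1 (log2 fold 0.62), Stab1 (0.63), Thy1 (2.95) and Gja1 (0.29) also passed. Thy1 rests on 5 and 8 UMIs in Prox1-positive and 8 and 11 in Prox1-negative cells. Under DESeq2, and without the library term, 5 of the 14 were called higher and none lower. On thinned cells 4 were higher and none lower, with at least 2 Prox1 UMIs 8 were higher and 2 lower, and with endothelium defined by 4 markers 7 were higher and 1 lower.

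Transcription factors of lymphatic specification gave 5 higher and 1 lower of 14. Nr2f2, the venous factor that acts with Prox1, was at 182 and 194 CPM against 120 and 133 CPM (log2 fold 0.56, SE 0.06). Foxc2, a factor of lymphatic valves, was at 12.4 and 12.1 CPM against 5.45 and 6.97 CPM (log2 fold 0.93, SE 0.23), and Nfatc1 (0.51) and Hhex (0.29) were also higher. Sox7 was lower (log2 fold -0.44). Sox18, which acts before Prox1, was at 25.9 and 23.6 CPM against 24.9 and 25.5 CPM and did not pass (log2 fold -0.06, SE 0.14). DESeq2, and edgeR without the library term, called 1 of the 14 higher and none lower. On thinned cells 2 were higher and 1 lower, with at least 2 Prox1 UMIs 4 were higher and 3 lower, and with endothelium defined by 4 markers 3 were higher and 1 lower.

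Ligands and receptors moved in both directions. Among 13 ligand genes Sema3a (log2 fold 1.36), Adamts14 (1.38) and Ccl21a (6.10) were higher and Vegfc, the ligand of the Flt4 receptor, lower, at 73.0 and 77.5 CPM against 108 and 130 CPM (log2 fold -0.70, SE 0.07). Ccl21a, a chemokine of lymphatic endothelium, rests on 3 and 12 UMIs in Prox1-positive and 2 and 0 in Prox1-negative cells. Near-identical copies of Ccl21a exist. Adamts14 rests on 6 and 18 UMIs in Prox1-positive and 47 and 58 in Prox1-negative cells. Of 15 receptor genes tested, Nrp2, the co-receptor of VEGFR3, was higher at 811 and 837 CPM against 405 and 417 CPM (log2 fold 0.99, SE 0.03), together with Ephb4 (0.21). Nrp1 (-0.61), Flt1 (-0.54) and Acvrl1 (-0.32) were lower. Fgfr3 did not pass the filter on low counts. DESeq2, and edgeR without the library term, each called 2 ligand genes higher and 1 lower, and 1 receptor gene higher and 2 lower. On thinned cells 1 ligand gene was higher and 1 lower, and 1 receptor gene higher and 2 lower. With at least 2 Prox1 UMIs required, 1 ligand gene was higher and 1 lower, and 1 receptor gene higher and 6 lower. With endothelium defined by 4 markers, 2 ligand genes were higher and 2 lower, and 2 receptor genes higher and 2 lower.

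Arterial genes fell in 10 of 14 cases and rose in 1, with a median log2 fold of -0.50. Gja5 (-1.20) and Gja4 (-1.05), connexins of arteries, Jag2 (-1.05), Hey1 (-1.01) and Bmx (-0.997) were lower. Efnb2 (-0.52), Mecom (-0.49), Jag1 (-0.48), Sox17 (-0.45) and Notch1 (-0.20) were also lower, and Unc5b (0.29) was higher. Bmx rests on 12 and 7 UMIs in Prox1-positive cells. It was at 6.22 against 7.11 CPM in MMPlow 1 and 2.17 against 7.50 CPM in MMPlow 2. Of 8 venous genes 5 rose, Nrp2, Flrt2 (0.63), Nr2f2, Dab2 (0.28) and Ephb4, and 3 fell, Vwf (-0.37), Aplnr (-0.21) and Emcn (-0.14). Of the 5 sinusoidal genes tested, of 8 listed, Stab1 and F8 (0.64) rose and Clec1b (-0.45) fell. DESeq2 called 4 arterial genes lower and none higher, 3 venous genes higher and 1 lower, and 1 sinusoidal gene higher and 1 lower. Without the library term 5 arterial genes were called lower and none higher, 3 venous genes higher and none lower, and 1 sinusoidal gene higher and none lower. With endothelium defined by 4 markers the arterial list gave 1 higher and 7 lower, the venous list 4 and 1, and the sinusoidal list, with all 8 genes tested, 1 and 3, so its balance turned. With at least 2 Prox1 UMIs these counts were 1 and 10, 3 and 3, and 1 and 1, and on thinned cells 0 and 6, 3 and 1, and 1 and 1.

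**Figure D5:**
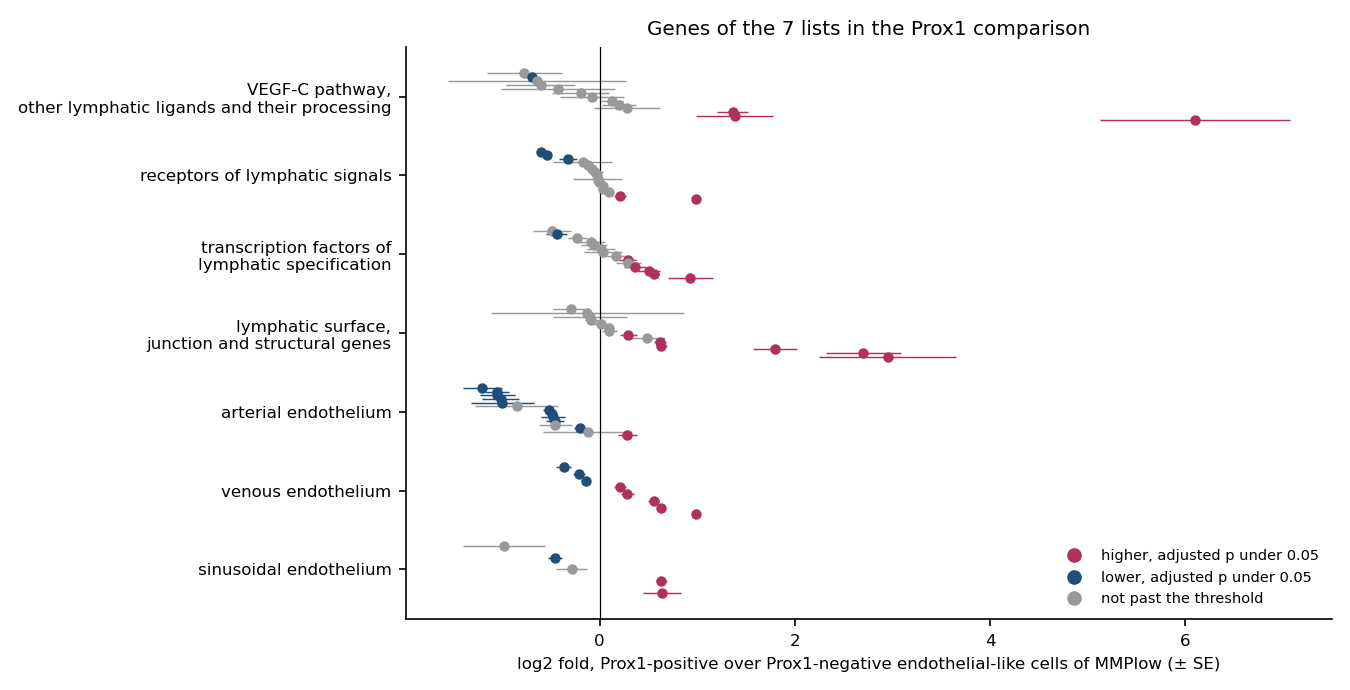
Log2 fold of each tested gene of the 7 lists between Prox1-positive and Prox1-negative endothelial-like cells of MMPlow (horizontal axis, bars are SE), with one row per list and colour for the edgeR threshold. The 10 arterial genes in blue lie left of 0 and the 6 surface genes in red lie right of it.

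Outside the lists, the genes with the smallest adjusted p in edgeR among those at least 1 log2 unit higher were Pld5, Sdk1, Prkag2, Aff3, Nnat, Creb5, Nkain2, Rnf141, Pcsk6 and Smoc1. Pld5, of the phospholipase D family, was at 147 and 148 CPM against 21.1 and 21.1 CPM (log2 fold 2.79, SE 0.08). Smoc1, a matricellular protein gene, had the largest fold of the 10, at 13.0 and 22.6 CPM against 2.5 and 1.90 CPM (log2 fold 3.09, SE 0.24). The 5 lower genes named by the same order were Abtb2, Ccdc85a, Arap2, Pde3a and Lrp8, with log2 folds from -1.28 to -1.01.

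The genes whose levels ran most like each member over the 31 clusters differed by member. These correlations are descriptions over clusters that share 4 libraries. Flt4 ran with Ushbp1, Pcdh12 and Rasip1 (Pearson r from 0.984 to 0.988), and Stab2 with Fabp4, Bace2 and Gm16271 (0.924 to 0.952). For Scn3a they were Nol4, Nxph1 and Myt1l (0.967 to 0.976), for Apba2 Nfasc, Miat and Srrm4 (0.978 to 0.987) and for Reln Cacna2d3, Cacna2d2 and Gm2164 (0.853 to 0.893). Nts ran with Upp1, Plvap and Cda (0.869 to 0.903), and Lyve1 with Pparg, Cd36 and Mrc1 (0.787 to 0.879). Prox1 had the weakest partners, Zbtb18, Dll1 and Trp53i11 (0.757 to 0.785).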

How the data were processed

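Whole-number UMI counts per gene and cell, as the authors deposited them for 4 libraries (10x Genomics 3′ v3 chemistry, per the labels' protocols), were used unnormalized. The file headers name Cell Ranger 7.0.1 and the submitters' processing notes Cell Ranger 2.1.1 and mm10. The members and lists were chosen with earlier results of these data known. Cells needed 2000 UMIs, 1000 genes and under 25% mitochondrial UMIs. Scrublet in scanpy 1.11.5 removed 996 and 68 doublets in MMPlow 2 and MMPhigh 2. In MMPlow 1 and MMPhigh 1 it marked 2 and 0 barcodes, so the top 5% of scores (835 and 220 cells) were removed. The 42049 cells were clustered without the 8 genes (30 components, Leiden resolution 1, 31 clusters) and classes named "-like" from 16 marker lists. Leading genes were ranked with 100 CPM added, and clusters with a rival list left unnamed, rules set after the clusters were seen. Classes rebuilt this way may differ from the study's own. UMIs summed per library were tested with edgeR 4.0.16 in R 4.3.3 (TMM, filterByExpr, glmQLFTest, two-sided), and checked on simulated counts, with DESeq2 1.42.0 as an alternative; a fold's SE is its size over the square root of the F statistic. The Prox1 fit holds the library as a block. Named genes were the members, list genes past the threshold, the 10 higher and 5 lower other genes of smallest adjusted p with a log2 fold of at least 1, and the 3 genes most correlated with each member over clusters (Pearson, log2(CPM + 10)). Intervals are exact 95% (Clopper-Pearson). Promoters come from RefSeq, GRCm38.p6. Depth per cell limits every share of cells with a UMI. One gene of the lists that passed the threshold is counted but not reported here by name.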

Additional observations from a re-analysis of the deposited data

How the results depend on the processing

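Genes past the threshold between Prox1-positive and Prox1-negative endothelial-like cells numbered 1097, against 360 with DESeq2, 333 with no replicate block and 708 on thinned cells. With endothelium defined by 4 markers they numbered 1488. Between gates in endothelial-like cells 332 genes passed, against 557 with no filter on low counts, 721 with DESeq2, 253 with the replicate block and 48 to 772 when 1 library was left out (48 without MMPlow 1, 81 without MMPlow 2 and 772 without MMPhigh 1). In neuron-like cells 1236 passed, against 2172 with no filter, 1983 with doublet calls kept, 1522 with the replicate block and 875 to 1894 leaving out 1 library (1894 without MMPhigh 1). In macrophage-like cells 4362 passed, against 5142 with the replicate block and 2068 to 4907 leaving out 1 library (2068 without MMPlow 1). Over all cells 10963 passed, 11094 with the block and 7753 to 10903 leaving out 1 library. The number of genes tested also changed between settings, so these counts are not on one base. Between gates in endothelial-like cells it was 14915, but 6648 without MMPlow 1, 6674 without MMPlow 2 and 16989 without MMPhigh 1. The labels do not say that replicate numbers pair libraries, and with 2 pairs none is assumed. The endothelial gate fold of Stab2, 0.39, was -2.24 without MMPhigh 2 and 1.02 without MMPhigh 1. On thinned cells the mean shares of Prox1-positive cells were 9.27% for Reln, 4.39% for Nts, 27.6% for Flt4, 4.82% for Lyve1, 13.2% for Stab2 and 5.41% for Apba2. With endothelium defined by 4 markers they were 5.90% for Nts, 40.9% for Flt4 and 10.2% for Apba2. Of the levels of at least 10 CPM, only Stab2 in macrophage-like cells of MMPlow (19.8 at resolution 0.5, against 10.4), beside the Prox1 and Scn3a values given above, moved by over 1.5 times with the clustering resolution. Causes were not tested. The stricter cell filter was not run for the endothelial gate, where MMPhigh 1 keeps 8 cells.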
